A study of Homo sapiens with 12 samples.

Results

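The genes described here encode 10 nuclear receptors that bind retinoids, fatty acids, vitamin D, thyroid hormone or glucocorticoids. They are RXRA, RXRB, RARA, RARG, PPARA, PPARD, PPARG, THRA, VDR and NR3C1, listed by name out of 20090 protein-coding genes, and the rule used no measured value. A region of any of the 6 peak lists counted as a promoter region of a gene where it overlapped the stretch that runs from 1 kb before to 100 bp after one of the gene's GENCODE transcript starts, and regions within the gene and 20 kb to either side made up its window. The libraries were made from HCC70, a cell line established from a triple-negative breast tumour, so all groups share the genotype of that line. Cells were given vehicle or XY018, a chemical antagonist of RORγ, for 24 h at a dose of 5 µM by the labels, while the study's methods state a lower dose, so the dose is in doubt. Chromatin was immunoprecipitated with antibodies against SREBP2, the transcription factor of cholesterol synthesis, against RORγ, with a rabbit serum, or against H3K27ac, an acetylated histone found at active promoters and enhancers. Each antibody and treatment had 1 library, so no difference between treatments has a replicate check, no p-value is given, and all intervals below cover counting error only.

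Nuclear receptors are ligand-dependent transcription factors that bind short hexamer repeats in DNA. RXR proteins are the common partner: RAR, PPAR, THR and VDR proteins each pair with an RXR to bind their response elements, whereas the glucocorticoid receptor binds as a homodimer to its own element and works without RXR. RORγ, 1 of the 3 targets immunoprecipitated here, belongs to the same superfamily and binds a single AGGTCA half-site as a monomer, while SREBP2 binds the sterol regulatory element and often acts beside NF-Y and Sp1.

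The depth of the libraries lay between 3.65 and 6.16 tags per kb. The H3K27ac lists held only part of longer call sets, so a missing H3K27ac region says less than a missing factor region. H3K27ac lay on the promoters of 7 of 8 epithelial and basal markers (66.8% of all genes with vehicle, 68.0% with XY018), KRT14 being the exception. It reached 238 fragments with vehicle and 302 with XY018 at CDH1, the epithelial cadherin. Of the basal keratins, KRT5 had only 33 and 22, and KRT17 8 and 18. ESR1, the estrogen receptor, had 10 and 13, so KRT17 was no higher than ESR1 with vehicle. No region was called at PGR, the progesterone receptor. The luminal factors FOXA1 (225 and 250) and GATA3 (189 and 204) were also marked. None of 4 markers of leukocytes, fibroblasts and hepatocytes was called.

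The sequences at 6 factor summits show what kind of DNA the calls lay on. All are hg19 sequence, the build of every coordinate given here, 5′ to 3′ on the strand of the gene, and capitals mark any match, on either strand, to the letters AGGTCA (receptor half-site), TCACNCCAC (sterol regulatory element), CCAAT (NF-Y box), GGGCGG (GC box), CACGTG (E-box) or AGAACA (half-site of the glucocorticoid element), with overlapping matches marked together. The first is the site in the first intron of PPARD where both factors peaked and where the SREBP2 ratio of XY018 to vehicle was the lowest of the promoter pairs, and the second the intronic RARG site with the highest SREBP2 fold enrichment over local background of all windows. The third is the neighbouring RARG site, 1 of the 2 SREBP2 summits with a sterol regulatory element. The fourth is an intronic RXRA site of RORγ with 2 separate half-sites, a weak call of 10 fragments with vehicle. The fifth is the 5′ end of RXRB, and the sixth the 5′ end of VDR.
PPARD chr6:35310459-35310657 (+): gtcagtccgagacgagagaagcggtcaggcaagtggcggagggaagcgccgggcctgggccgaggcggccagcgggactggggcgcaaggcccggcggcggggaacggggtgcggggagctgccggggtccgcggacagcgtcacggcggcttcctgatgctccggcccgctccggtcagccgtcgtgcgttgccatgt
RARG chr12:53612507-53612707 (-): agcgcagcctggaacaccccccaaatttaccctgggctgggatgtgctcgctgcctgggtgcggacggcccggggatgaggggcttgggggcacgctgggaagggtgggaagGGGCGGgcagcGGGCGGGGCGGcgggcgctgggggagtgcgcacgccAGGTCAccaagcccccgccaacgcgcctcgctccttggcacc
RARG chr12:53613139-53613339 (-): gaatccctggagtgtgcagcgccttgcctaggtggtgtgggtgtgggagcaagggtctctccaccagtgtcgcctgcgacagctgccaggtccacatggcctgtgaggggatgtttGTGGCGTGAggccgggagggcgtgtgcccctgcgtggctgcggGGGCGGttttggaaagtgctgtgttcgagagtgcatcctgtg
RXRA chr9:137230227-137230427 (+): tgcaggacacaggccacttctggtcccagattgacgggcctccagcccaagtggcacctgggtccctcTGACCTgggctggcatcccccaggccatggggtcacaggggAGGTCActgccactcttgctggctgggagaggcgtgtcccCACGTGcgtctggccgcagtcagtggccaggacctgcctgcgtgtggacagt
RXRB chr6:33167977-33168177 (-): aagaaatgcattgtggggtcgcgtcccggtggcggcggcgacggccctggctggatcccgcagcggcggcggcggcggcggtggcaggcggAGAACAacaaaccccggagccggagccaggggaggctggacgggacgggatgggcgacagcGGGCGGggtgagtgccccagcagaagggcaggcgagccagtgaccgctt
VDR chr12:48336122-48336322 (-): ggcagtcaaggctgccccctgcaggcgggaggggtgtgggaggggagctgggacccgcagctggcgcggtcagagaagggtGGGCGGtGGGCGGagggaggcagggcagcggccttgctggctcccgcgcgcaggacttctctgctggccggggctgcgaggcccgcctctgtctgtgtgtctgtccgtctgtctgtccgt

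The PPARD stretch was 74.9% G and C but held no whole match, since the AGGTCA counted for its window lay across the left end of the printed bases. The first RARG stretch held 1 half-site and 3 GC boxes, the other RARG stretch 1 sterol element and 1 GC box, and the VDR stretch 2 GC boxes. The RXRA stretch held 2 half-sites, in opposite orientation, and 1 E-box. At RXRB a GC box and AGAACA lay in or beside its first coding exon, which covers 159 of these bases. A match describes the letters and does not show binding.

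The question of the comparison was how occupancy at these receptor genes differed between vehicle and the RORγ antagonist. With vehicle, SREBP2 was called at the promoters of 10 of the 10 genes (70.6% of all protein-coding genes), RORγ at those of 8 (62.7%) and H3K27ac at those of 10 (66.8%). With XY018 the counts were 9 for SREBP2 (62.7% of all genes), 9 for RORγ (61.5%) and 10 for H3K27ac (68.0%). At a false discovery value (q) of at most 0.01 the RORγ count with vehicle was 7, and the other counts were unchanged. No share of all genes was computed at that threshold. All 3 antibodies were called at 8 genes with vehicle (50.6% of all genes) and at 9 with XY018 (49.6%). The promoters of RXRB, and with vehicle of RARG, were the ones that RORγ lacked. Among called promoters, the median signal of the members was 31.1 times the genome-wide background for SREBP2 with vehicle (28.2 over all called promoters), 33.7 for RORγ (30.5) and 95.7 for H3K27ac (51.3).

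Those missing calls lay at the edge of the window. At RXRB (chr6:33161365-33168442, minus strand) the SREBP2 vehicle region ended at 33168291, inside the window, and the XY018 region at 33168288. With 1 kb taken to either side of a start, a choice made after these values were seen, all 10 promoters were called in all 6 lists (65.7 to 73.7% of all genes). RXRB then had 34 SREBP2 fragments at its summit with vehicle and 28 with XY018, and its RORγ count was 17 with each. RARG had 12 RORγ fragments with vehicle and 8 with XY018. At VDR (chr12:48235320-48336831, minus strand) the RORγ site near the 5′ end had 25 fragments with vehicle and 19 with XY018, but its vehicle region lay just inside the gene and only a region of 5 fragments at another start counted with vehicle. No gene of the 10 thus lacked a factor region near a start under either treatment.

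**Figure D1:**
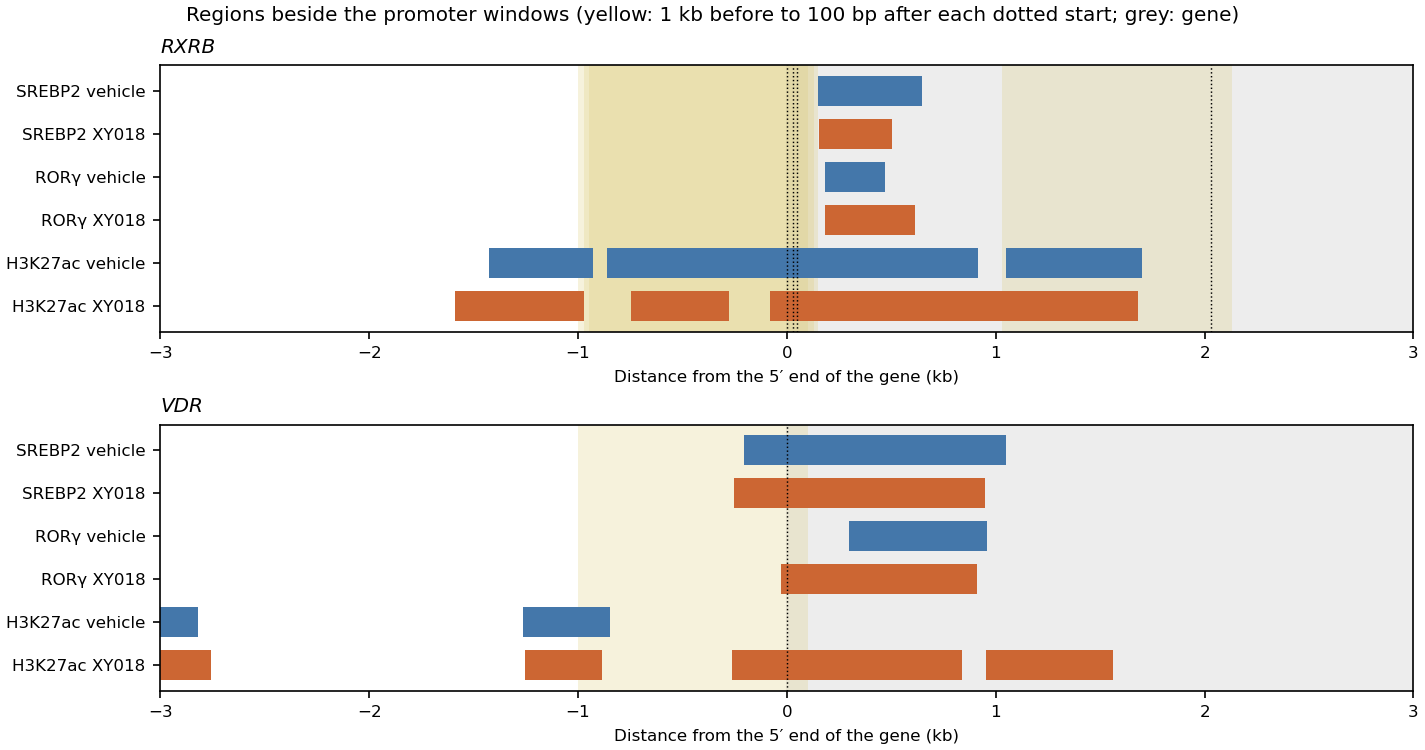
Regions of the 6 lists (rows, blue for vehicle and orange for XY018) around the 5′ ends of RXRB and VDR, by distance in kb from the 5′ end of the gene; dotted lines are transcript starts, yellow the promoter windows and grey the gene. The RXRB factor regions end at or just short of a window, the SREBP2 vehicle region alone reaching it, and the RORγ vehicle region of VDR stops short.

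Fragments at the summit, recovered from the peak values, were compared next as the ratio of XY018 to vehicle after division by each library's genome-wide background. For the retinoid X receptor RXRA (chr9:137208944-137332431, plus strand), the obligate partner of most of the others, SREBP2 had 34 fragments with vehicle and 24 with XY018 at a start 9.6 kb into the gene, a ratio of 0.597 (95% interval 0.339 to 1.04). At that start RORγ had 27 and 16 (0.655, 0.330 to 1.26) and H3K27ac 159 and 250 (1.72, 1.41 to 2.12), so acetylation was higher with XY018 by more than counting error while both factors were lower within it. The strongest RORγ promoter pair lay at another start, 69.2 kb in, with 34 and 24 fragments (0.781, 0.443 to 1.36). At RXRB, the more widely expressed paralogue, H3K27ac had 178 and 198 fragments (1.22, 0.99 to 1.5), the highest acetylation of the 10 promoters with vehicle.

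Among the retinoic acid receptors the SREBP2 ratio was lower at RARG than at RARA, with intervals that overlap. RARA (chr17:38465432-38513895, plus strand) had 35 SREBP2 fragments with vehicle and 28 with XY018 (0.677, 0.397 to 1.15), and 45 and 35 RORγ fragments (0.860, 0.537 to 1.37). Its promoter H3K27ac was low, at 36 and 45 fragments in the paired region (1.37, 0.864 to 2.19). RARG (chr12:53604351-53626764, minus strand), the isotype of epithelia, had 26 SREBP2 fragments with vehicle and 12 with XY018 at an internal start (0.391, 0.180 to 0.802). Near its 5′ end H3K27ac had 97 and 91 (1.03, 0.764 to 1.38), the ratio nearest to 1 of the 10 genes, with SREBP2 of 18 and 14 (0.658, 0.303 to 1.40). Deeper in the gene, 14.2 kb from the 5′ end, H3K27ac had 82 and 120 (1.6, 1.2 to 2.15).

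Of the fatty acid receptors, PPARD stood lowest in SREBP2. PPARD (chr6:35310335-35395968, plus strand), the broadly expressed isotype, had 51 SREBP2 fragments with vehicle, the most of any of these promoters, and 23 with XY018 (0.382, 0.223 to 0.636). RORγ at the same position had 46 and 25 (0.601, 0.354 to 0.999). PPARA (chr22:46546424-46639652, plus strand), the receptor of hepatic fatty acid oxidation, had 40 and 27 SREBP2 fragments (0.571, 0.337 to 0.954) and 43 and 24 RORγ fragments (0.617, 0.358 to 1.04). PPARG (chr3:12328867-12475855, plus strand), the adipogenic isotype, had 26 and 18 SREBP2 fragments (0.586, 0.303 to 1.11) and 19 and 17 RORγ fragments (0.989, 0.483 to 2.01). H3K27ac was higher with XY018 at all 3, at 112 and 154 fragments for PPARD (1.51, 1.17 to 1.94), 127 and 224 for PPARA (1.93, 1.55 to 2.42) and 112 and 155 for PPARG (1.52, 1.18 to 1.95). The PPARA ratio was the highest H3K27ac ratio of the 10 genes.

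THRA and NR3C1 had equal RORγ counts under both treatments while their SREBP2 counts were lower with XY018. THRA (chr17:38214543-38250120, plus strand), a thyroid hormone receptor, had 30 SREBP2 fragments with vehicle and 24 with XY018 (0.677, 0.379 to 1.2), 16 and 16 RORγ fragments (1.11, 0.518 to 2.36) and 96 and 148 H3K27ac fragments (1.69, 1.30 to 2.21). NR3C1 (chr5:142657496-142815077, minus strand), the glucocorticoid receptor, had 26 and 13 SREBP2 fragments (0.423, 0.200 to 0.854), 18 and 18 RORγ fragments (1.11, 0.543 to 2.25) and 118 and 150 H3K27ac fragments (1.39, 1.09 to 1.79). VDR, the vitamin D receptor, had 24 and 19 SREBP2 fragments (0.670, 0.347 to 1.28) and 32 and 41 H3K27ac fragments (1.40, 0.863 to 2.30). That H3K27ac pair belonged to an internal VDR start. At the 5′ end of the gene, where both factors were called with each treatment, H3K27ac had 35 fragments with XY018 and no region in the vehicle list, which is partial.

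**Figure D2:**
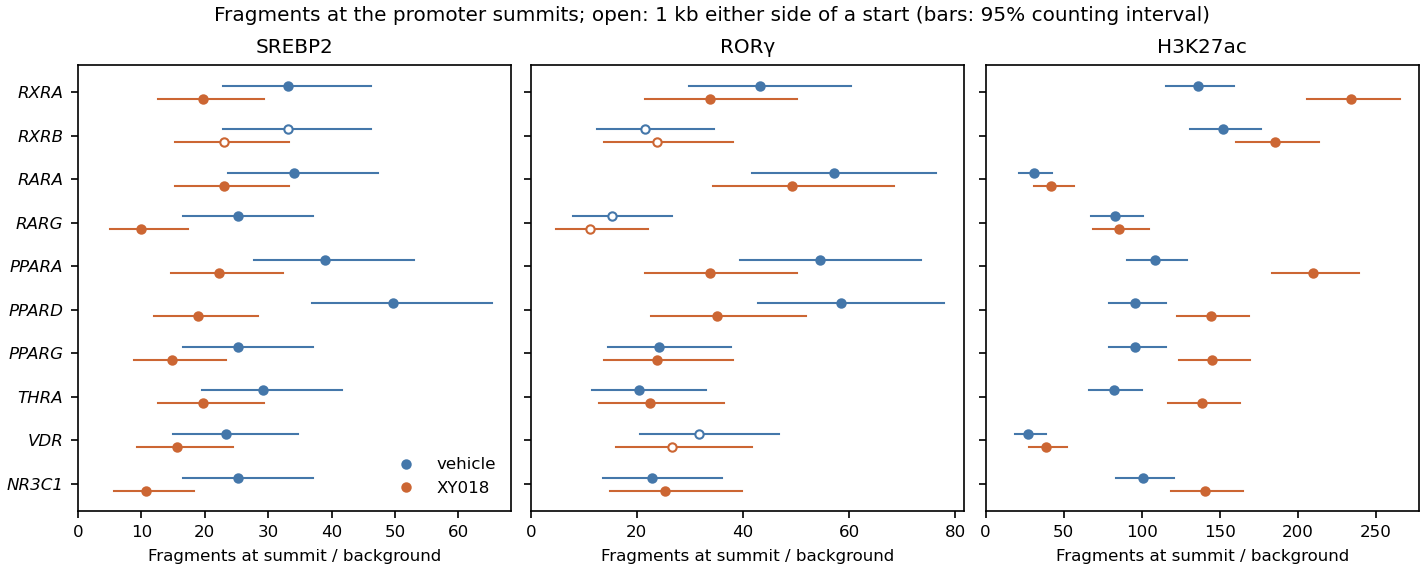
Fragments at the promoter summit divided by the genome-wide background (x axis) for each gene with vehicle (blue) and XY018 (orange), in 1 panel per antibody; bars are 95% counting intervals, and open symbols use 1 kb to either side of a start. SREBP2 points with XY018 lie left of vehicle for all 10 genes, and H3K27ac points lie right of it.

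The members lay close to the median promoter for SREBP2. SREBP2 ratios ran from 0.382 to 0.677 in the 9 genes paired, with a median of 0.586 against 0.621 over all 12336 paired promoters. Of the 9, 6 were more than 1.5-fold lower (62.5% of all paired promoters) and 0 more than 1.5-fold higher (0.0567%), so the share of members was close to the background. The intervals of RARG, PPARA, PPARD and NR3C1 left out 1. PPARA came closest to it, with an upper limit of 0.954. Scaled by tags per kb its ratio was 0.633 instead of 0.571, a shift that brings 1 inside the interval. RORγ had a median of 0.860 in 7 genes against 0.968 over all, with 2 more than 1.5-fold lower (9.52% of all), PPARA and PPARD, and 0 higher (7.36%). H3K27ac had a median of 1.46 in 10 genes against 1.27 over all, with 5 more than 1.5-fold higher (22.7%), RXRA, PPARA, PPARD, PPARG and THRA, and 0 lower (3.07%). In the 9 genes paired for both, SREBP2 was below 1 and H3K27ac above 1 in all 9. At RARG and VDR the SREBP2 pair and the H3K27ac pair lay at different starts. Over all paired promoters, 98.1% were below 1 for SREBP2 and 19.5% for H3K27ac, so both directions were those of most promoters. With the pair of nearest summits H3K27ac was 0.849 at RARA, and with the deposited fold 0.78 at RARG, both below 1. The summits paired lay 11 to 1165 bp apart for SREBP2, and the deposited fold enrichment, which divides by the local background, was higher with XY018 at RARA (9.18 and 13.1) and PPARA (8.81 and 10.7), the reverse of the fragments.

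**Figure D3:**
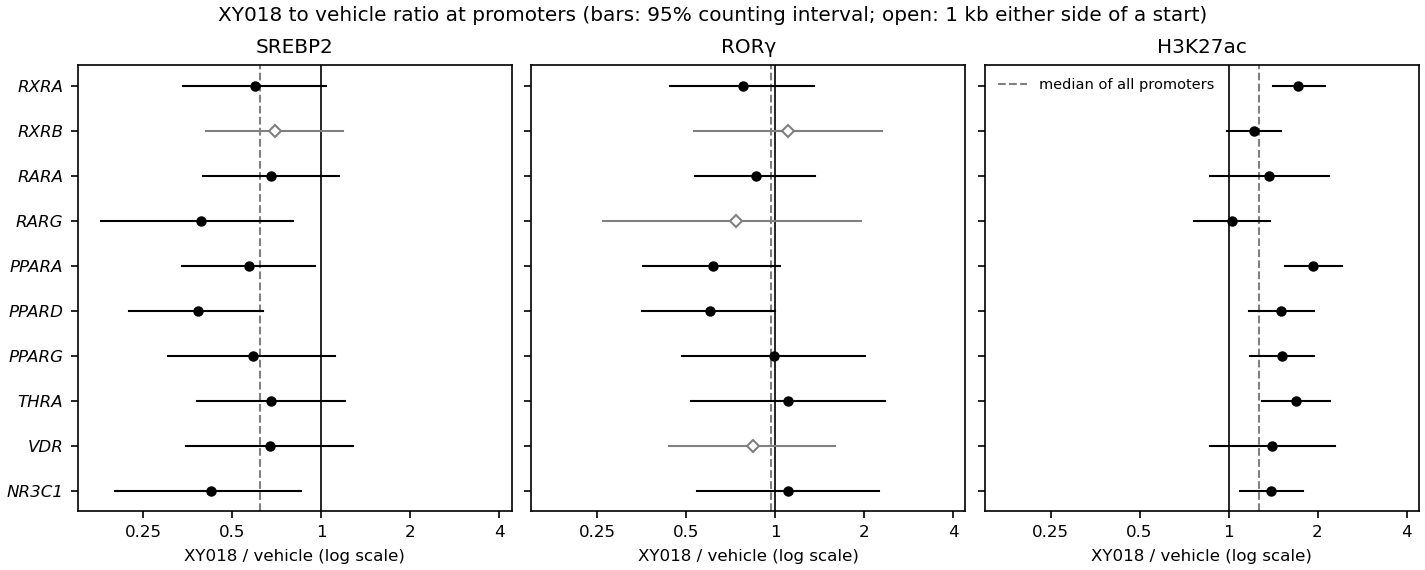
XY018 to vehicle ratio of summit fragments over background (log axis) for each gene and antibody; bars are 95% counting intervals, the solid line marks 1 and the dashed line the median of all paired promoters. Open diamonds use 1 kb to either side of a start. SREBP2 points lie at or below 0.697, and H3K27ac points at or above 1.03.

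The windows of these genes differed far more than their promoters did. SREBP2 gave 180 regions in the 10 windows with vehicle and 114 with XY018, RORγ 130 and 127, and H3K27ac 227 and 239. RXRA held 92 of the 180 SREBP2 vehicle regions and 61 of those with XY018. Its density, 56.3 regions per 100 kb with vehicle, was above that of 98.7% of genes, and for RORγ, at 35.5, above 94.2%. Most lay in introns, 69 of the 92. The median local background at the RXRA regions was 1.17 times the genome-wide one, against 1.33 over the whole SREBP2 list, and its part in the density was not tested. NR3C1 lay at the other end: its window of 197.6 kb held 1 SREBP2 region with vehicle and 2 with XY018, 3 and 2 RORγ regions, and 2 and 4 H3K27ac regions. Every factor region of NR3C1 with XY018, and the strongest region of each list, lay at the cluster of starts about 32.8 kb into the gene. PPARG was alike, with 1 RORγ region in 187.0 kb under either treatment.

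**Figure D4:**
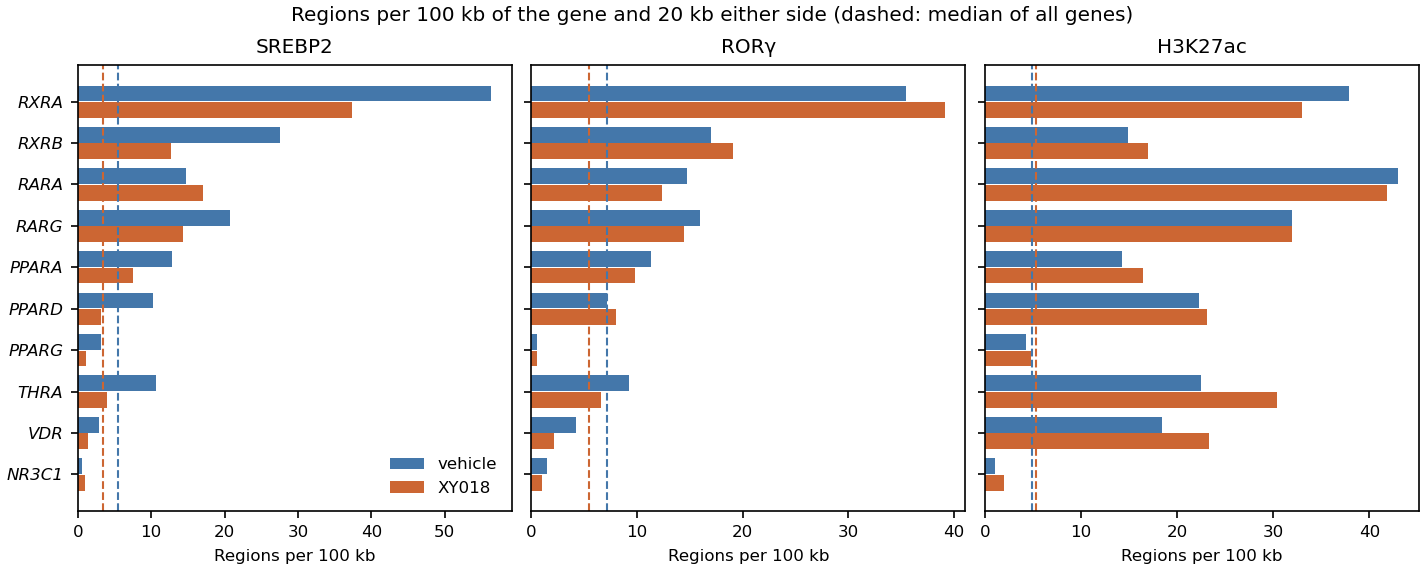
Regions per 100 kb of the gene and its flanks for each gene (bars from 0) with vehicle (blue) and XY018 (orange), in 1 panel per antibody; dashed lines are the medians of all protein-coding genes. RXRA leads for SREBP2 (56.3 with vehicle) and RARA for H3K27ac (43.0 with vehicle), while NR3C1 and PPARG lie below the dashed lines.

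The other genes lay between. RXRB had 27.6 SREBP2 regions per 100 kb with vehicle and 12.7 with XY018, RARG 20.8 and 14.4, RARA 14.7 and 17.0, PPARA 12.8 and 7.51, THRA 10.6 and 3.97, PPARD 10.3 and 3.18, PPARG 3.21 and 1.07, and VDR 2.83 and 1.41. RARA and NR3C1 were the genes whose SREBP2 density was higher with XY018. RARA had the densest acetylation, 38 H3K27ac regions with vehicle and 37 with XY018 in 88.5 kb, although the acetylation of its promoter pair was, after VDR, the lowest of the 10. The median over the members was above the median of all genes for each antibody and treatment, at 11.7 against 5.49 per 100 kb for SREBP2 with vehicle, 10.3 against 7.19 for RORγ and 20.3 against 4.85 for H3K27ac.

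**Figure D5:**
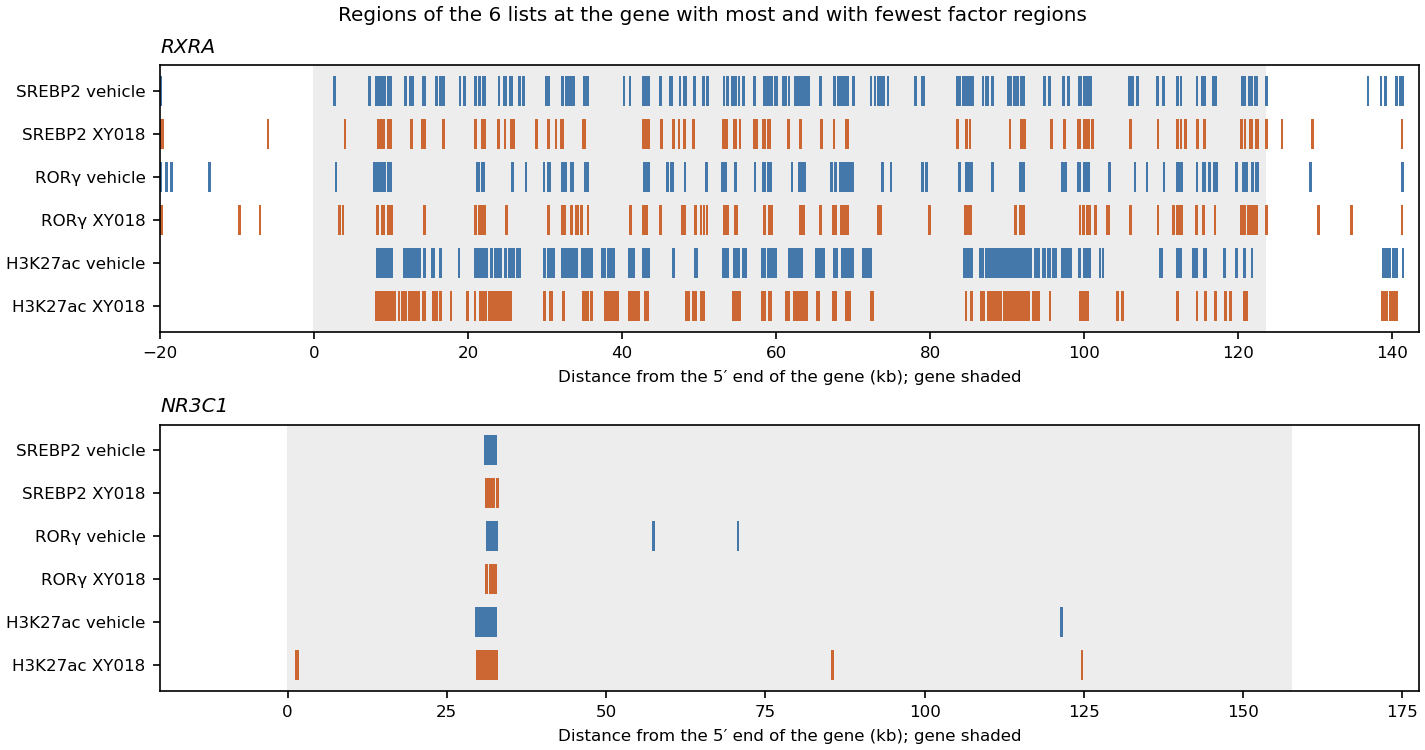
Regions of the 6 lists (rows; blue vehicle, orange XY018) across RXRA and NR3C1, by distance in kb from the 5′ end of the gene; the gene is shaded and the map reaches 20 kb beyond it. The RXRA window holds 92 SREBP2 vehicle regions, 8 of them in the flanks, and the NR3C1 window a single one.

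Of the vehicle regions in the windows, 98 of 180 for SREBP2, or 54.4% (46.9 to 61.9%), overlapped an XY018 region (39.8% over the whole list). For RORγ the share was 53.8% (44.9 to 62.6%; list 36.4%), and for H3K27ac 75.3% (69.2 to 80.8%; list 69.3%). The share was higher at the genes' own promoters, at 87.0% for SREBP2 (23 regions), 80.0% for RORγ (15) and 88.6% for H3K27ac (35), than outside promoters, at 47.3% of 146, 47.2% of 106 and 70.8% of 178. Promoter regions were also the stronger ones, with a median of 24.0 SREBP2 fragments against 13.0 outside. Among regions at q, the peak caller's false discovery value, of at most 1e-05, 30 of 117 SREBP2 vehicle regions had no XY018 region (20.9% over the list), 1 of 44 for RORγ (8.44%) and 32 of 183 for H3K27ac (22.0%). In reverse, 0 of 54 SREBP2 XY018 regions lacked a vehicle region, which allows a share of up to 5.56% (0.547% over the list), 1 of 48 for RORγ (4.75%) and 39 of 185 for H3K27ac (26.9%). Of the 30 lost SREBP2 regions 18 lay at RXRA.

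The strongest SREBP2 regions that were absent with XY018 were all at RXRA. A region 139.1 kb from its 5′ end, in the downstream flank (chr9:137347886-137348253), had 22 SREBP2 fragments with vehicle, while H3K27ac there had 58 with vehicle and 52 with XY018. One in an intron, 116.9 kb in (chr9:137325545-137326162), had 17 SREBP2 fragments and 6 RORγ fragments under each treatment, and H3K27ac had no region with vehicle and 11 fragments with XY018. Another, 90.9 kb in (chr9:137299704-137300505), had 20 SREBP2 fragments, no RORγ region with vehicle and 6 RORγ fragments with XY018, and H3K27ac of 68 and 82. Where another antibody was called with both treatments at these sites, the interval of its ratio held 1. The lone RORγ region lost at the stricter threshold lay 10.4 kb upstream of PPARA (chr22:46535836-46536206), with 11 fragments. The H3K27ac regions lost with most fold were an RXRA intron site 97.2 kb in, with 21 fragments, and an internal PPARG promoter 117.3 kb in, with 17.

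At highest-fold sites away from promoters SREBP2 was also lower with XY018. In RXRA, an intronic site 58.6 kb from the 5′ end (chr9:137267238-137268600) had 37 SREBP2 fragments with vehicle and 16 with XY018 (0.366, 0.190 to 0.674), against 14 and 17 RORγ (1.34, 0.623 to 2.94) and 37 and 27 H3K27ac fragments (0.800, 0.468 to 1.35). In RARA, an exonic site 47.0 kb in (chr17:38512202-38512672) had 39 and 16 SREBP2 fragments (0.347, 0.181 to 0.636), and 21 and 20 RORγ (1.05, 0.542 to 2.04). The intronic RARG site printed above (chr12:53612389-53612882) had 53 and 28 SREBP2 (0.447, 0.272 to 0.720), 24 and 31 RORγ (1.43, 0.811 to 2.54) and 82 and 120 H3K27ac fragments. These 3 sites were chosen for a high SREBP2 fold with vehicle, which favours a lower SREBP2 value with XY018, whereas RORγ did not enter the choice. The RARG site with the sterol element, next to it, had 15 SREBP2 fragments with vehicle and no region with XY018.

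The largest RORγ ratios of the windows included a pair of sites in RXRA. At an intronic site 63.1 kb in (chr9:137271816-137272837), RORγ had 18 fragments with vehicle and 38 with XY018 (2.33, 1.30 to 4.35), while SREBP2 had 35 and 28 (0.677, 0.397 to 1.15). With 1 kb taken to either side of a start, the SREBP2 pair at this site counted as the RXRA promoter pair. At the second, 67.6 kb in (chr9:137276495-137276728), RORγ had 5 and 14 (3.10, 1.05 to 11.0). These were picked as the largest ratios after their values were seen. Over the paired RXRA regions RORγ had a median ratio of 1.2 in 34 regions, against 1.11 over the whole list, and SREBP2 0.594 in 52 regions, against 0.616.

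Several of the strongest regions belonged to neighbours. Within the RXRB window the highest fold of both factors lay on the promoter of COL11A2, a collagen gene, with 56 SREBP2 fragments with vehicle and 34 with XY018 (0.514, 0.325 to 0.801) and, at the RORγ summit, 49 and 44 fragments (0.993, 0.646 to 1.52). All factor and H3K27ac regions at the 5′ end of RXRB also overlapped the promoter of SLC39A7, a zinc transporter transcribed the other way. The PPARA window held the promoter of PKDREJ, with 51 and 47 SREBP2 fragments (0.780, 0.513 to 1.18) and 54 and 50 RORγ fragments (1.02, 0.683 to 1.53). The highest RORγ fold in the RARG window lay at ITGB7, an integrin subunit, with 45 and 38 fragments (0.934, 0.590 to 1.47). Signal at those sites cannot be assigned to the receptor gene.

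RORγ regions overlapped SREBP2 more often, and both factors H3K27ac more often, than over whole lists, while the share of SREBP2 regions with RORγ was near that of the list. The lists span the genome, whereas these windows lie around genes. Windows of other genes were not compared for overlap, so a higher share is not shown to be particular to the receptor genes. With vehicle, 65.4% (56.5 to 73.5%) of the 130 RORγ regions overlapped an SREBP2 region, against 34.6% over the RORγ list, and 53.8% (44.9 to 62.6%) overlapped H3K27ac, against 16.7%. Of the 180 SREBP2 regions, 50% (42.5 to 57.5%) overlapped RORγ, against 49.0%, and 60.6% (53.0 to 67.7%) H3K27ac, against 27.3%. RXRA supplied 92 SREBP2 and 58 RORγ regions. Without it the shares were 59.7%, 50%, 50% and 51.1%, in the same order. At the genes' own promoters 86.7% of 15 RORγ regions overlapped SREBP2, and 60.4% of 106 did outside promoters.

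GC boxes were the commonest of the 6 motifs at these summits, and the sterol element was rare. Within 100 bp of the summit GGGCGG was found in 37.8% (30.7 to 45.3%) of the SREBP2 regions of the windows (30.1% of the whole list) and in 78.3% (56.3 to 92.5%) of the 23 at the genes' own promoters (57.3% of all SREBP2 promoter regions). For RORγ it was found in 32.3% (19.6% of the list), and in 53.3% of the 15 at own promoters (54.6% of all RORγ promoter regions). AGGTCA was found in 12.2% of the SREBP2 regions (17.1% of the list). The sterol element was found in 2 of 180 SREBP2 regions, 1.11% (2.42% of the list), at RARG (15 fragments) and PPARD (5 fragments, −log10 q 0.934). At q of at most 1e-05 it was found in 1 of 117 (0.986% of the list at that threshold). In the 23 own-promoter regions it was found in 0, which allows up to 13.0%. Among RORγ regions AGGTCA was found in 20 of 130, 15.4% (9.66 to 22.8%; 25.6% of the list), or 23.6% without RXRA, and in 0 of the 15 at own promoters, which allows up to 20% (9.43% of all RORγ promoter regions). Of these 20, PPARA held 4 and RXRA, RARA, RARG and PPARD 3 each. Most were weak calls. At q of at most 1e-05 AGGTCA was found in 2 of 44 RORγ regions (9.3% of the list at that threshold), at RARG (24 fragments) and RARA (21). The other sites had 4 to 10 fragments. The CCAAT box was found in 9.44% of SREBP2 and 7.69% of RORγ regions (10.8 and 12.5% of the lists), CACGTG in 5.00 and 5.38% (4.72 and 3.65%) and AGAACA in 3.33 and 4.62% (4.91 and 5.57%). The median G and C content was 67.2% at SREBP2 summits (64.2% of the list) and 66.7% at RORγ summits (53.2%), and its part in the motif shares was not tested.

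The same measures were read for 38 other nuclear receptor genes and for partners and targets of these pathways. Vehicle lists called 36 of the 38 for SREBP2 (70.6% of all genes), 32 for RORγ (62.7%) and 25 for H3K27ac (66.8%), and XY018 lists called 31, 30 and 24. Of 31 paired, 21 had an SREBP2 ratio more than 1.5-fold lower, beside 62.5% of all paired promoters. RARB, the third retinoic acid receptor, had 26 SREBP2 fragments with vehicle and 35 with XY018 (1.14), the highest ratio of this list. HNF4A, a hepatic receptor, had the lowest (0.321). Its strongest regions, of 29 fragments with vehicle and 12 with XY018, were not the pair behind that ratio. THRB had 28 and 19 (0.574) and NR3C2, the mineralocorticoid receptor, 29 and 18 (0.525). RXRG, the neuromuscular RXR, had 13 with vehicle and no call with XY018, and no H3K27ac call under either treatment.

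Counts for downstream genes are read against the same 62.5% of all paired promoters. Of 13 retinoid handling and RAR target genes 6 of 10 paired were more than 1.5-fold lower for SREBP2, from DHRS3, a retinal reductase, with 52 and 15 fragments (0.244) to CRABP1, a retinoic acid carrier, with 19 and 22 (0.98). Of 10 PPAR targets 4 of 7 were, with FABP5, a fatty acid carrier, at 44 and 28 (0.539) and CPT1A, which admits fatty acids to mitochondria, at 30 and 28 (0.790). Of 12 glucocorticoid receptor chaperones and targets 8 of 10 were, with SGK1, a kinase, at 23 and 12 (0.442) and PER1, a clock gene, at 27 and 24 (0.752). Of 9 vitamin D and thyroid hormone genes 1 of 3 was, and DIO3, a deiodinase, was highest at 46 and 40 (0.736). The medians of the 4 lists were 0.630, 0.645, 0.544 and 0.705, beside 0.621 for all promoters.

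By distance over the 6 log2 values of fragments over background, with 1 fragment set for an uncalled promoter, the nearest other receptor was NR2F6 for RXRA (0.733), PPARA (0.660) and PPARD (0.98). It was NR2F2 for PPARG (0.801) and NR3C1 (0.762), NR1H2 for RARA (0.720) and NR6A1 for THRA (0.839). RXRB (NR1H3, 3.04), RARG (THRB, 3.70) and VDR (NR2C1, 2.21) had no close match, and these were the genes with calls at the window's edge. Among the members, NR3C1 and PPARG were closest (0.491), followed by PPARA and RXRA (0.573).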

How the data were processed

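The 6 immunoprecipitated libraries of HCC70 cells were grouped by the antibody and treatment of their labels. The series has 12 samples, and the 6 inputs were not used here. The authors deposited 1 list of MACS2 2.1.0 peaks per library on hg19, from reads sequenced single-end. Bowtie2 and bedtools are named in the submitters' notes and BWA in the study's methods. Each deposited row gives a display score (not used), the fold enrichment, which is the ratio of summit pileup plus 1 to local background plus 1, −log10 p-value and −log10 q-value, and the summit offset. From the deposited fold and −log10 p, each summit's fragment number and local background were solved for under the Poisson model. The solving was also tested on simulated data. In the 6 deposited lists, 99.999 to 100% of regions gave a whole fragment number within a tolerance of 5% of a step. The commonest local background of a list stood for the genome-wide one, and divided by fragment length it gave the depth, 3.65 to 6.16 tags per kb. Where a promoter had several regions, the overlapping pair of highest summed pileup was taken. Intervals are exact Poisson or exact binomial (Clopper-Pearson) at 95%. The limit given for a count of 0 is not exact but 3 counts over the total. GENCODE 44, lifted to GRCh37, gave genes and starts, and sequences were read from GRCh37. PECAM1, a marker, was not used here. The members, lists and tests were chosen with earlier results of these data known. The text names all 10 members, related receptors, the highest-fold vehicle region per member and list, up to 3 strongest lost regions per antibody, and per list the genes with the highest and lowest SREBP2 ratio. Some genes that this rule would name are not reported here. NumPy 2.4.6, SciPy 1.17.1 and pysam 0.24.0 were used. Stricter thresholds, other windows, overlaps, scalings and motif spans were tried.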

Additional observations from a re-analysis of the deposited data

Results flagged for a closer look

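The direction of SREBP2 and of H3K27ac at promoters of the same genes was opposite. At RARG and VDR the SREBP2 pair and the H3K27ac pair lay at different starts. In all 9 genes paired for both antibodies SREBP2 was lower with XY018 than with vehicle, with a median ratio of 0.586 (0.382 to 0.677), and H3K27ac was higher, with a median of 1.46 over the 10 genes paired for it (1.03 to 1.93). The difference between the antibodies was not tested, since each has 1 library per treatment, and the medians over all paired promoters were 0.621 and 1.27. Of all paired promoters, 98.1% were below 1 for SREBP2 and 19.5% for H3K27ac, so both directions were those of most promoters. The opposite directions did not hold under every alternative: with the deposited fold SREBP2 was 1.43 at RARA and 1.22 at PPARA and H3K27ac 0.78 at RARG, and with the pair of nearest summits H3K27ac was 0.849 at RARA.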

How the results depend on the processing

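Of 272 alternative values for 60 results, 228 stayed within 1.5 times (counts) or within the counting interval (shares and ratios) of the value given above. No paired analysis was possible because each group holds 1 library, and for the same reason no library could be left out. Leaving out RXRA, using 1 kb to either side of a start and using the deposited fold were chosen after seeing the data. All 30 alternatives for promoter counts and all 18 for median ratios stayed within these limits. The limits were wide. Counts cannot exceed 10, so none could rise past 1.5 times its value. For a median the limit was the counting interval of the single member nearest to it. Staying within such limits says little about stability. With the deposited fold the SREBP2 ratio was 1.43 at RARA and 1.22 at PPARA and the H3K27ac ratio 0.78 at RARG, and with nearest summits the H3K27ac ratio was 0.849 at RARA, all on the other side of 1. At PPARA the local background was 3.65 with vehicle and 1.61 with XY018. Counts of SREBP2 regions in the windows (vehicle, then XY018) were 117 and 54 at q of at most 1e-05, 278 and 174 with 50 kb of flank, and 88 and 53 without RXRA. Those of RORγ were 44 and 48, 234 and 206, and 72 and 63. Shares kept were 33.3% (SREBP2), 32.3% (RORγ) and 47.6% (H3K27ac) with summits within 100 bp, 65.7% for SREBP2 with lists of equal length, and for RORγ 64.6% at q of at most 0.01 and 84.1% at 1e-05. The SREBP2 shares at those thresholds were 51.0% and 47.0%. With summits within 100 bp, SREBP2 regions overlapped RORγ in 27.8% and H3K27ac in 38.3%, and RORγ regions overlapped SREBP2 in 38.5% and H3K27ac in 28.5%. At q of at most 1e-05 no overlap share of the whole lists was computed. RORγ regions there overlapped SREBP2 in 100% and H3K27ac in 84.1%, and SREBP2 regions H3K27ac in 72.6%. Without RXRA the last share, over all regions, was 51.1%. Within 50 bp of the summit, motif shares at SREBP2 regions were 4.44% for AGGTCA, 4.44% for CCAAT, 27.2% for GGGCGG, 1.67% for CACGTG and 1.11% for AGAACA, and at RORγ regions 6.92% for AGGTCA, 18.5% for GGGCGG and 0.769% for AGAACA, the window being shorter. At q of at most 1e-05 GGGCGG was found in 48.7% of SREBP2 regions (50.8% of the list at that threshold) and 59.1% of RORγ regions (52.7%). AGGTCA was found there in 4.55% of RORγ regions (9.3%). Without RXRA AGGTCA was found in 23.6% of RORγ regions. For the other settings the cause of a move was not tested. With 12 to 51 fragments at SREBP2 promoter summits, only ratios of 0.571 or lower, scaled by background, had intervals that left out 1.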
